A study of Mus musculus with 9 samples.

Results

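Antibody supply in the salivary gland was followed here through 9 genes of B cells, plasma cells and antibody transport: Jchain, Pigr, Mzb1, Cd79a, Cd79b, Ms4a1, Pax5, Blk and Cd22. They were listed by symbol and looked up in the platform's annotation, which gave each of the 9 a single transcript cluster, the array's unit for the transcripts of a gene. These 9 stand among 22206 transcript clusters tested and 19505 genes with a symbol. The mice were female, of the strain C57BL6/J and 12 weeks old, and RNA of their submandibular glands was measured on 9 Clariom S arrays. One group of 3 arrays holds glands taken on day 3 after mock surgery, another holds glands taken on day 3 after partial resection, and the last holds glands taken on day 14 after partial resection. All 3 groups therefore had an operation, each group has 3 biological replicates by the labels, and the later time is set against mock glands of day 3 because day 14 mock glands are not analysed here.

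Plasma cells that settle in salivary glands make polymeric antibody, chiefly IgA, in which the joining chain encoded by Jchain links the antibody units. The polymeric immunoglobulin receptor, encoded by Pigr, is made by the glandular epithelium, binds antibody that carries the joining chain, and carries it through the cell into saliva. Mature B cells are recognised by the signalling chains of the B cell receptor (Cd79a and Cd79b), the surface protein CD20 (Ms4a1), the coreceptor Cd22, the kinase Blk and the lineage factor Pax5, several of which are lost when B cells become plasma cells.

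The deposited values are on a log2 scale, and a difference of values is given in log2 units of that scale, not as a calibrated fold change. Over all transcript clusters the median per array was 5.09 to 5.24. Because the table holds no detection calls, each value was also set against the 5222 negative control rows of its array, whose median was 4.41 to 4.77 and whose 95th percentile, used here as a background line, was 8.21 to 8.52. Between 22.8% and 25.3% of tested transcript clusters lay above that line on an array. The line is strict: the pan-leukocyte gene Coro1a and the B cell genes Cd37 and Btk lay under it on all 9 arrays and still passed the test between groups (examples chosen after their values were seen), so a value under the line does not show that a transcript is absent. Across the table, 1393 transcript clusters passed an adjusted p of 0.05 in limma for day 3 resected against mock (1092 higher and 301 lower, or 973 and 452 after quantile normalisation and 1013 and 480 after median centring). The corresponding counts were 34 for day 14 resected against mock and 1394 for day 14 against day 3 resected (310 higher and 1084 lower). Where 1 array is said to be left out, the whole model was fitted again without it.

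Of the 9 genes, Pigr lay above the background line on 9 of 9 arrays and Jchain on 5 of 9, namely 3 mock, 0 day 3 resected and 2 day 14 resected arrays. Mzb1, Cd79a, Cd79b, Ms4a1, Pax5, Blk and Cd22 lay under it on every array, between 2.34 and 5.08 log2, which is between percentile 3.93 and percentile 59.31 of the negative controls. The defining markers of B cells were thus not measured above background in any group, and the label of the set is borne by Jchain and Pigr alone.

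**Figure D1:**
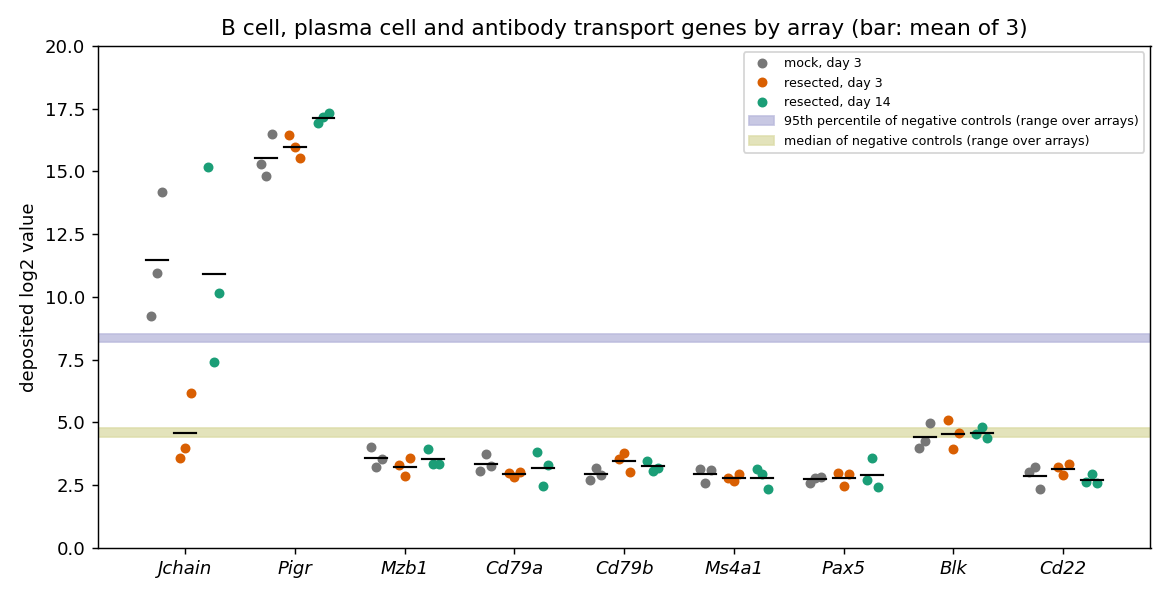
Deposited log2 value (vertical axis) of each of the 9 genes (horizontal axis) on each of the 9 arrays, coloured by group, with a bar at the mean of each group's 3 arrays and bands for the range over arrays of the negative controls' median and 95th percentile. Jchain spreads from 3.57 to 15.19, Pigr stays between 14.80 and 17.33, and the other 7 genes stay between 2.34 and 5.08.

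The promoters of the pair of genes measured above background are shown because the joining chain and its receptor are made in different cells, the plasma cell and the epithelium. The windows are the 250 bases before the RefSeq gene start in GRCm38.p6, Jchain on the minus strand at chr5:88527898-88528147 and Pigr on the plus strand at chr1:130826434-130826683, each written 5′ to 3′ along its own strand. Capitals mark the E-box letters CANNTG, the core bound by basic helix-loop-helix factors.
Jchain: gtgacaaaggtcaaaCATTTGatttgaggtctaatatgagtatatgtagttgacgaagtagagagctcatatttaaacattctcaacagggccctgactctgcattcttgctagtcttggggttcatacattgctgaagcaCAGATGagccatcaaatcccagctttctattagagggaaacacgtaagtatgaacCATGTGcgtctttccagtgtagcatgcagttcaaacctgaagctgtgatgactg
Pigr: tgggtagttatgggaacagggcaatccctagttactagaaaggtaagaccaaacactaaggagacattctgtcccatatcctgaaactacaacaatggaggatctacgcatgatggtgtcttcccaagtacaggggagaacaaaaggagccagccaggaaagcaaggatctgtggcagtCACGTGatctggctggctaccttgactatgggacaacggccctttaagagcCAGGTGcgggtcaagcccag
The Jchain window holds 3 E-boxes and the Pigr window 2, of which 1 has the palindromic form CACGTG. Searched on both strands, CANNTG occurs in 66.2% of 32851 RefSeq promoter windows of this length, and CACGTG, which is a special case of it, in 6.0%. The octamer ATGCAAAT, bound by the B cell factors of the POU family, occurs in 1.6% of windows and is in neither the Jchain nor the Pigr window. Of the other genes, Cd79a and Cd22 have 2 E-boxes in their windows and Pax5 has 1, and windows of Mzb1, Cd79b, Ms4a1 and Blk were not used here.

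Jchain was low on day 3 after resection and varied widely in the other groups. On mock arrays 1, 2 and 3 its level was 9.22, 10.95 and 14.18 log2. On the day 3 resected arrays it was 3.57, 3.98 and 6.15. On the day 14 resected arrays it was 15.19, 7.40 and 10.14. Every day 3 resected array was lower than every array of the other groups, while the mock and day 14 ranges overlapped. Both the highest and the lowest day 14 arrays lay outside the range of the mock arrays. Group means were 11.45 ± 2.52 in mock, 4.57 ± 1.38 in day 3 resected and 10.91 ± 3.95 in day 14 resected glands (SD, n = 3).

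Set against mock, Jchain fell by 6.88 ± 1.60 (SE) in day 3 resected glands (95% interval -10.34 to -3.42, limma adjusted p = 0.0208). Among the 9 genes it was the only one called in this comparison, against 6.27% of all transcript clusters called in either direction (4.92% higher and 1.36% lower). Between day 3 and day 14 after resection it rose by 6.34 ± 1.60 (interval 2.88 to 9.80, limma adjusted p = 0.0324), again as the only one of the 9, against 6.28% called in either direction (1.40% higher and 4.88% lower). Day 14 resected and mock glands differed by -0.54 ± 1.60 (interval -4.00 to 2.93, limma adjusted p = 0.961), and 0 of the 9 genes were called there, against 0.153% of all transcript clusters (0.0991% higher and 0.0540% lower). At an unadjusted p under 0.05 in limma, Pigr alone among the 9 passed in that last comparison. In order of level the groups ran mock, day 14 resected and day 3 resected, and the first and second of these did not differ beyond their spread. The exact two-sided permutation test over arrays gave p = 0.1 for each comparison with day 3 resected glands, the smallest value that 3 against 3 arrays allow, and p = 0.9 for day 14 against mock.

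Since the day 3 resected arrays lay at or near the negative controls, the fitted sizes depend on background values. Each of these arrays was also raised to its own background line (mean 8.45 in place of the measured 4.57). The mock mean was then 3.00 log2 higher and the day 14 mean 2.47 log2 higher. Of the day 14 arrays 2 of 3 lay above the line, and array 2, at 7.40, kept its measured value. These differences have no interval or test, and the group SDs were 2.52 and 3.95, so they are not minimum differences. In these whole-gland samples, fewer plasma cells and less Jchain RNA per cell cannot be told apart.

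Both Jchain calls depended on single arrays and on how the variance was estimated. The standard deviation within groups was 2.82, and only 4 of 22206 transcript clusters varied more within groups. With robust variances, which let unusually variable genes keep a larger variance, the adjusted p was 0.170 for day 3 resected against mock and 0.198 for day 14 against day 3 resected. Against mock the call ended when mock array 2 (-7.13, limma adjusted p = 0.0547), mock array 3 (-5.51, 0.0838), day 3 resected array 1 (-6.38, 0.0710) or day 3 resected array 2 (-6.59, 0.0733) was left out, and it held in the other 5 limma fits. Between day 14 and day 3 it ended when any 1 day 3 array was left out (array 1, 5.84 with limma adjusted p = 0.0959, array 2, 6.05 with 0.109, array 3, 7.13 with 0.0533), as well as day 14 array 1 (4.20, 0.0971) or 3 (6.73, 0.0743), and held in the other 4 limma fits. In all of these fits the direction was that of the full data. The difference between day 14 resected and mock glands, not called in any fit, ran from -2.68 without day 14 resected replicate 1 to 1.22 without day 14 resected replicate 2.

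**Figure D2:**
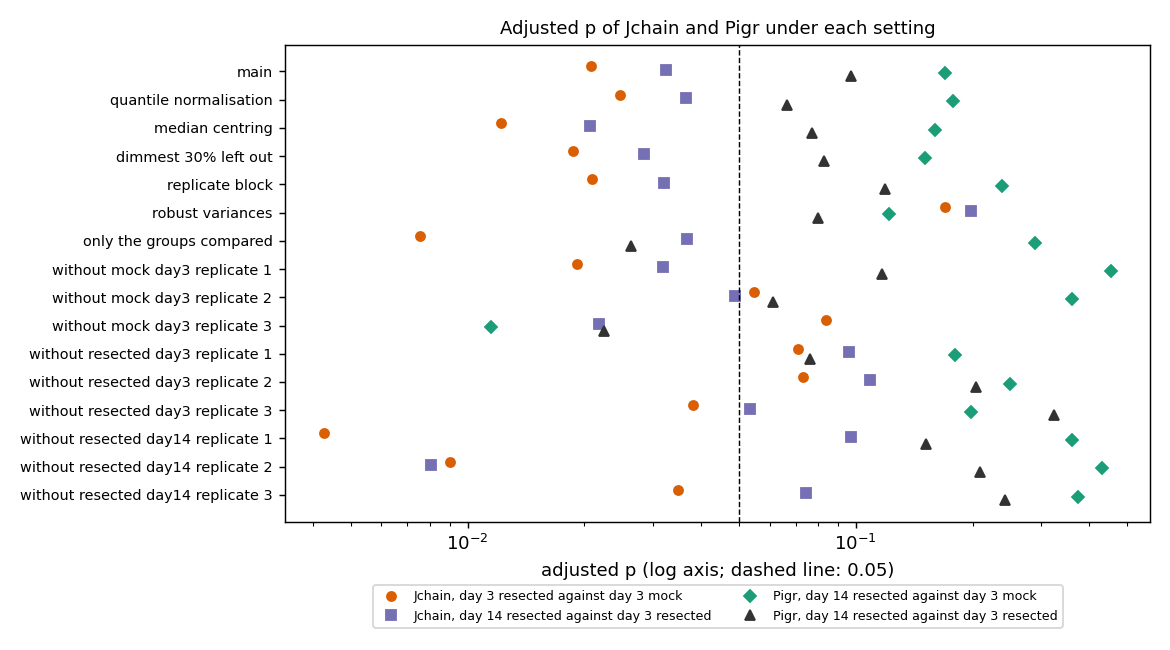
Adjusted p from limma (horizontal log axis, dashed line at 0.05) for Jchain and Pigr under each setting (vertical axis), with 1 marker for each gene and comparison. The Jchain markers cross the line with robust variances (0.170 and 0.198) and without single arrays, and the Pigr markers lie left of it under 2 settings for day 14 against day 3 resected (0.0264 and 0.0225) and under 1 for day 14 against mock (0.0115).

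Pigr was high in all groups and highest on the day 14 arrays. Its level was 15.30, 14.80 and 16.48 log2 on mock arrays 1, 2 and 3. On day 3 resected arrays it was 16.43, 15.99 and 15.53. Day 14 resected arrays had 16.91, 17.16 and 17.33. Mock and day 3 resected ranges overlapped, and every day 14 array was above every other array. The means were 15.53 ± 0.86, 15.99 ± 0.45 and 17.13 ± 0.21 (SD, n = 3), in that order.

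No Pigr difference passed the threshold in the fit of all 9 arrays. Day 14 resected glands differed from mock by 1.61 ± 0.37 (SE; interval 0.80 to 2.41, unadjusted p = 8.6e-04, limma adjusted p = 0.170) and from day 3 resected glands by 1.15 ± 0.37 (interval 0.34 to 1.95, limma adjusted p = 0.0972). Day 3 resected and mock glands differed by 0.46 ± 0.37 (limma adjusted p = 0.573). Non-overlapping groups are common in these data: against mock at day 14 they occurred in 13.0% of transcript clusters (6.03% with day 14 higher and 6.99% lower), and between day 14 and day 3 in 25.4% (12.9% with day 14 higher and 12.5% lower). Without mock replicate 3, the highest of the mock arrays, Pigr passed against mock at day 14 (2.08, limma adjusted p = 0.0115) and between day 14 and day 3 (1.15, 0.0225). It also passed between day 14 and day 3 when only those 6 arrays were fitted (limma adjusted p = 0.0264). The values above 16 lie near the top of the scale, whose maximum was 19.93.

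**Figure D3:**
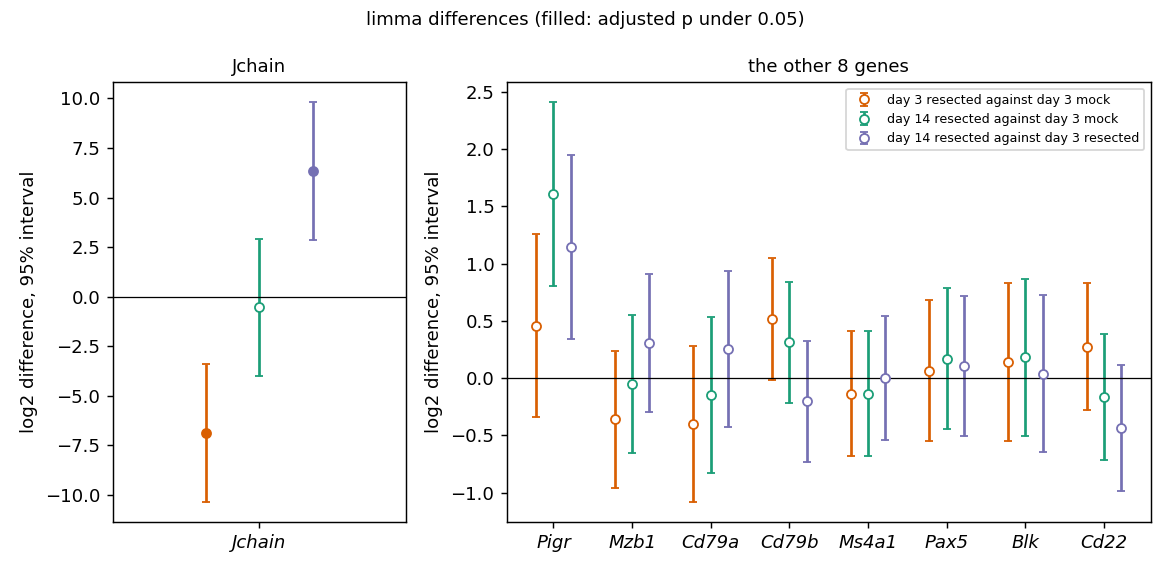
Log2 difference from limma with its 95% interval (vertical axes) for Jchain (left) and the other 8 genes (right), with colour for the comparison and filled points for an adjusted p under 0.05. Jchain differs by -6.88 and 6.34 in the filled comparisons, and the Pigr intervals for day 14 lie above 0 (from 0.80 against mock and from 0.34 against day 3 resected) with open points.

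Mzb1, an endoplasmic reticulum protein of marginal zone B cells and plasma cells that helps antibody assembly, was under the background line on every array and was called in no comparison. Its level was 4.03, 3.23 and 3.52 in mock glands. It was 3.28, 2.85 and 3.57 on day 3 and 3.93, 3.35 and 3.35 on day 14 after resection. The groups overlapped in every comparison. Day 3 resected glands differed from mock by -0.36 ± 0.28 (SE; interval -0.96 to 0.24, limma adjusted p = 0.552), and day 14 from day 3 by 0.31 ± 0.28 (interval -0.29 to 0.91, limma adjusted p = 0.615). Against mock at day 14 the Mzb1 difference was -0.05 ± 0.28, and its sign turned when 1 array was left out (-0.25 to 0.17).

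The signalling chains of the B cell receptor stayed at background. Cd79a was at 3.05, 3.71 and 3.24 in mock glands, 2.98, 2.80 and 3.03 at day 3 and 3.82, 2.44 and 3.30 at day 14 after resection. Every day 3 resected array was below every mock array for Cd79a, at -0.40 ± 0.31 (SE; interval -1.08 to 0.28, limma adjusted p = 0.560). Jchain and Cd79a were the 2 of 9 genes whose groups did not overlap in this comparison, against 23.0% of all transcript clusters (11.2% with day 3 resected higher and 11.8% lower). Cd79b, the partner chain, was at 2.70, 3.17 and 2.91 in mock glands, 3.55, 3.77 and 3.01 at day 3 and 3.47, 3.06 and 3.19 at day 14 after resection. Its ranges overlapped, and the day 3 difference from mock was 0.52 ± 0.25 (interval -0.02 to 1.05, limma adjusted p = 0.285), opposite in sign to that of Cd79a. Both chains lay under the background line on every array, so the lack of a call in them cannot be set against the called change of Jchain.

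The coreceptor Cd22, which restrains receptor signalling, was at 3.03, 3.23 and 2.36 in mock glands, 3.22, 2.91 and 3.32 at day 3 and 2.60, 2.95 and 2.59 at day 14 after resection. It differed by 0.28 ± 0.25 between day 3 resected and mock glands (limma adjusted p = 0.635) and by -0.44 ± 0.25 between day 14 and day 3 (interval -0.99 to 0.11, limma adjusted p = 0.392). Ms4a1 encodes CD20, a surface protein of B cells that plasma cells lose. It was at 3.12, 2.56 and 3.11 in mock glands, 2.77, 2.67 and 2.94 at day 3 and 3.12, 2.92 and 2.34 at day 14 after resection. Its differences were -0.14 ± 0.25 for day 3 against mock, -0.14 ± 0.25 for day 14 against mock and 0.00 ± 0.25 for day 14 against day 3, the last with a sign that turned after quantile normalisation (-0.10). The groups of both genes overlapped throughout.

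Blk, a Src-family kinase of B cells, was at 3.97, 4.25 and 4.96 in mock glands, 5.08, 3.93 and 4.59 at day 3 and 4.55, 4.80 and 4.37 at day 14 after resection. Its differences were 0.14 ± 0.32 for day 3 against mock, 0.18 ± 0.32 for day 14 against mock and 0.04 ± 0.32 for day 14 against day 3 (limma adjusted p = 0.870, 0.923 and 0.968), the last with a sign that turned after quantile normalisation (-0.03). Pax5, the factor that commits cells to the B lineage and is switched off in plasma cells, was at 2.59, 2.78 and 2.81 in mock glands, 2.96, 2.48 and 2.93 at day 3 and 2.69, 3.57 and 2.43 at day 14 after resection. Its differences were 0.06 ± 0.28, 0.17 ± 0.28 and 0.11 ± 0.28 in the same order (limma adjusted p = 0.940, 0.917 and 0.889), the first with a sign that turned after median centring (-0.01). For the 7 genes under the background line the intervals of the 3 differences lay between -1.08 and 1.05 log2 on the deposited scale. At background level these intervals describe the values only and do not bound differences in transcript level.

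Other genes of B cells and their receptor were read from a list that holds none of the 9. Of 17 measured genes of receptor signalling and coreceptors, 2 were higher and 0 lower in day 3 resected than in mock glands, with a median difference of 0.21 against -0.06 over all transcript clusters tested. They were the tetraspanin Cd37 (1.76 ± 0.32, limma adjusted p = 0.00446) and the kinase Btk (1.06 ± 0.27, 0.0337), both of which myeloid cells also express. Btk lost the call when mock array 2 (0.94, limma adjusted p = 0.115) or 3 (0.98, 0.103), day 3 resected array 2 (1.02, 0.106) or 3 (0.84, 0.156) or day 14 resected array 1 (1.06, 0.0528) was left out, after quantile normalisation (0.94, 0.0553), with the replicate number as a block (0.0647) and with only the groups compared (0.0799). Between day 3 and day 14, Cd37 (-1.75 ± 0.32, limma adjusted p = 0.00433) and Btk (-1.69 ± 0.27, 0.00168) fell and the complement receptor Cr2 rose (0.92 ± 0.19, 0.0117), 3 of 17 with a list median of -0.15 against 0.06 over all. Cr2 was at 3.62 to 3.89 in mock glands, 2.97 to 3.17 at day 3 and 3.87 to 4.06 at day 14 after resection, all under the background line. In day 14 resected against mock glands, 0 of the 17 were called in limma (median 0.08 against -0.00), and 3 had an unadjusted p under 0.05. The shares called over all transcript clusters were 4.92% higher and 1.36% lower on day 3. From day 3 to day 14 these shares were 1.40% higher and 4.88% lower, and for day 14 against mock 0.153% in either direction.

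Pan-leukocyte and macrophage genes changed in the same comparisons. Of 8 measured, 8 were higher on day 3 after resection and 8 fell again by day 14, with a list mean per array of 7.86 to 8.45 in mock, 10.63 to 11.27 in day 3 resected and 8.61 to 8.87 in day 14 resected glands. The list medians were 2.42 and then -1.95, against -0.06 and 0.06 over all transcript clusters. Of all transcript clusters, 4.92% were called higher on day 3 and 4.88% lower from day 3 to day 14. The integrin Itgam rose by 4.32 ± 0.31, lysozyme (Lyz2) by 4.42 ± 0.35 and the macrophage marker Adgre1 by 2.47 ± 0.24 on day 3 (limma adjusted p = 1.0e-05, 1.4e-05 and 5.2e-05). Jchain was lowest on the same 3 arrays on which this list mean was highest. T cell genes had 1 of 10 called, Cd3e (1.04 ± 0.25, limma adjusted p = 0.0272), with list means of 3.86 to 4.11, 4.15 to 4.29 and 4.13 to 4.20 in mock, day 3 and day 14 glands and 0 of 10 genes above the background line on any array. The T cell median on day 3 was 0.11, against -0.06 over all. Cd3e lost the call with mock array 1 (0.99, 0.0859) or 3 (0.92, 0.0955) or day 3 resected array 2 (0.99, 0.0949) or 3 (0.89, 0.128) left out, and with only the groups compared (0.0526, all limma adjusted p). The part of these leukocyte values in the differences of Jchain, Cd37, Btk, Spi1 and the chemokines was not tested.

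B lineage transcription factors other than Pax5 had 12 measured members. In day 3 resected glands 1 was higher, Spi1 (PU.1), a factor shared by B cells and macrophages, at 3.65 ± 0.30 (limma adjusted p = 1.4e-05), with a list median of 0.39 against -0.06 over all. Over all transcript clusters 4.92% were called higher on day 3, and 1.40% higher and 4.88% lower from day 3 to day 14. From day 3 to day 14 Spi1 fell by 2.82 ± 0.30 (limma adjusted p = 7.6e-05), and Pou2af1, a coactivator of antibody genes in B and plasma cells, stood at the threshold with a difference of 1.55 ± 0.43 and an adjusted p that rounds to 0.05 in limma. Pou2af1 was at 3.29, 3.22 and 3.29 in mock glands, 2.82, 2.69 and 2.66 at day 3 and 5.58, 3.28 and 3.96 at day 14 after resection, all under the background line. As with Jchain, the day 3 resected arrays were the lowest 3 of 9 and day 14 resected replicate 1 was the highest. Leaving out any 1 array except day 14 resected replicate 2 ended the Pou2af1 call, with differences of 0.90 (without day 14 resected replicate 1, limma adjusted p = 0.0718) to 1.71 (without day 14 resected replicate 3, 0.0840) and adjusted p up to 0.153. It was also lost after quantile normalisation (1.48, 0.0798) and with only the groups compared (0.0897). Without day 14 resected replicate 2 it was 2.05 (limma adjusted p = 0.00827).

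Plasma cell identity and antibody secretion were read from 17 measured genes, many of which serve the secretory pathway of any gland cell. On day 3, 1 was higher (Slamf7, a surface receptor of plasma cells and other leukocytes, 1.95 ± 0.45, limma adjusted p = 0.0204) and 1 lower (Ell2, an elongation factor that favours the secreted form of antibody transcripts, -0.78 ± 0.20, 0.0398). The list median was -0.13, against -0.06 over all transcript clusters. Calls over all transcript clusters were 4.92% higher and 1.36% lower on day 3, and 1.40% higher from day 3 to day 14. Ell2 was at 12.67 to 12.93 in mock, 11.87 to 12.17 in day 3 resected and 13.04 to 13.37 in day 14 resected glands, so that day 3 was lowest and day 14 highest with no overlap. It rose by 1.17 ± 0.20 from day 3 to day 14 (limma adjusted p = 0.00319), the 1 gene of 17 called there (median 0.04 against 0.06). The day 3 fall of Ell2 was called in 1 of 9 fits without 1 array, that without day 14 resected replicate 2. In the others it was -0.86 to -0.68 with limma adjusted p of 0.0507 to 0.153, and it was also lost with the replicate block (0.0677) and with only the groups compared (0.0690). Slamf7 lost its call with mock array 2 (1.79, 0.0790) or 3 (1.80, 0.0735) or day 3 resected array 2 (1.80, 0.0803) or 3 (1.68, 0.103) left out. Its values, 5.16 to 8.24, lay under the background line on all 9 arrays.

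The factors and receptors that define plasma cells were not called. Prdm1 (BLIMP-1), which starts the plasma cell programme, lay between 2.74 and 3.84 on all arrays and Irf4 between 2.76 and 4.29. Tnfrsf17, the receptor BCMA that keeps plasma cells alive, lay between 2.67 and 4.72. Prdm1, Irf4 and Tnfrsf17 were under the background line on all 9 arrays, so the lack of a call says little about their transcripts. Xbp1, the factor of the unfolded protein response that secretory cells of many kinds use, was high everywhere (16.53 to 17.82) and differed by 0.35 ± 0.32 on day 3 (limma adjusted p = 0.629). Sdc1 (syndecan-1), found on plasma cells and on epithelium, differed by 0.94 ± 0.33 on day 3 (limma adjusted p = 0.126) and by -0.95 ± 0.33 between day 14 and day 3 (0.118), and passed on day 3 without mock replicate 3 (1.28, 0.0318). On day 14 resected replicate 1, where Jchain reached 15.19, Pou2af1 (5.58), Tnfrsf17 (4.72) and Irf4 (4.29) were each at their highest of the 9 arrays. These genes lay under the background line on all 9 arrays, at no more than percentile 69.11, 52.34 and 42.80 of the negative controls. On mock replicate 3, where Jchain reached 14.18, they were at 3.29, 3.51 and 3.28, so this pattern did not recur on the other array with very high Jchain. Both sets of array values were picked out after the values had been seen and carry no test. Of 14 antibody genes listed, including Igha, Ighm and Igkc, only the surrogate light chain gene Igll1 was measured (3.41 to 3.92, not called), and the others are not analysed here.

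**Figure D4:**
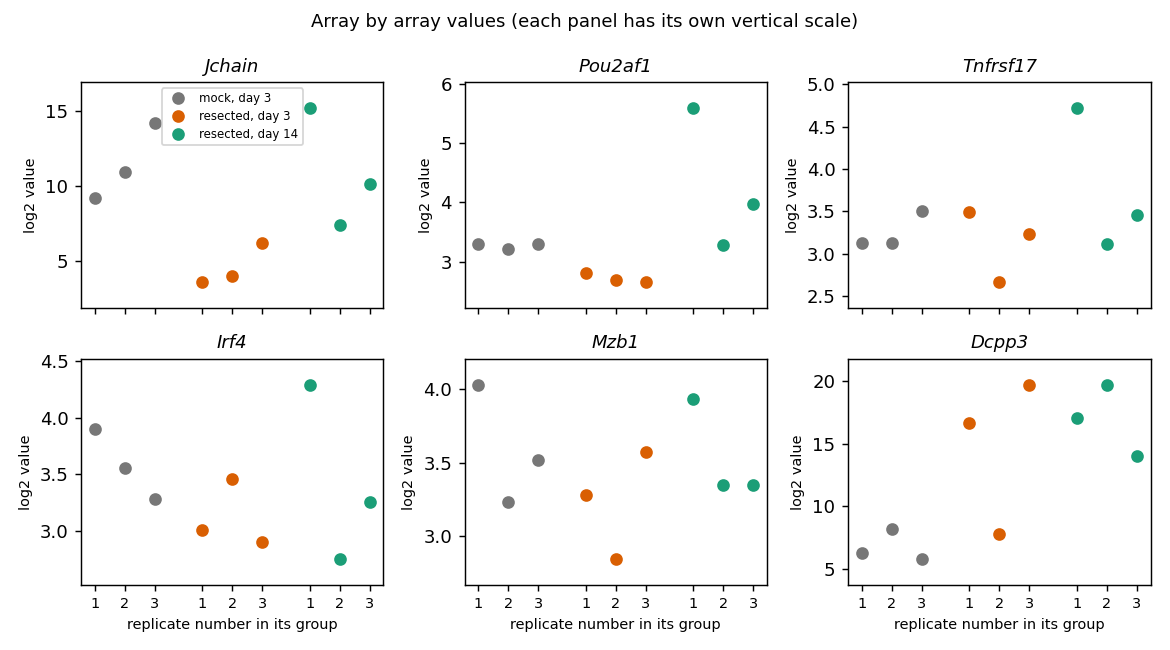
Log2 value (vertical axis, a separate scale for each panel) on each of the 9 arrays, ordered by group and replicate number, for Jchain, Pou2af1, Tnfrsf17, Irf4, Mzb1 and Dcpp3. Day 14 resected replicate 1 is the highest array for Jchain (15.19), Pou2af1 (5.58), Tnfrsf17 (4.72) and Irf4 (4.29) and not for Mzb1 (3.93) or Dcpp3 (17.06). Pou2af1, Tnfrsf17, Irf4 and Mzb1 lie under the background line on every array.

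Signals that bring plasma cells to mucosal glands and keep them there had 18 measured genes. On day 3, 5 were higher and 0 lower (median 0.28 against -0.06 over all), and all 5 fell again by day 14 (median -0.45 against 0.06). Among all transcript clusters 4.92% were called higher on day 3 and 4.88% lower from day 3 to day 14. Cxcl13, which attracts B cells, rose by 3.17 ± 0.39 (limma adjusted p = 3.0e-04) and then fell by 3.30 ± 0.39 (1.6e-04). Cxcl12, a survival and homing chemokine for plasma cells among many others, rose by 2.09 ± 0.24 (limma adjusted p = 1.9e-04) and fell by 2.07 ± 0.24 (1.3e-04). Tgfb1, which promotes switching to IgA among much else, rose by 1.80 ± 0.24 (5.3e-04) and fell by 1.87 ± 0.24 (3.0e-04). The remaining pair, named here after their values were seen, were the Cxcl12 receptor Cxcr4 (2.18 ± 0.32, limma adjusted p = 0.00114, then -1.83 ± 0.32, 0.00331) and the integrin chain Itga4 (1.39 ± 0.31, 0.0172, then -1.31 ± 0.31, 0.0238). Jchain thus ran opposite to these 5 genes in both comparisons. The comparisons share the day 3 resected arrays, and Cxcr4, Itga4 and the transport gene Exoc4 were not fitted again without single arrays. Cxcr4 lay under the background line on all 9 arrays, and Itga4 lay above it on 2, both day 3 resected.

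The chemokine that draws IgA plasma cells to salivary glands, Ccl28, was high in all groups and was not called. It was at 13.48, 12.79 and 13.80 in mock glands, 13.28, 12.68 and 13.88 at day 3 and 12.75, 13.01 and 12.70 at day 14 after resection. Its groups overlapped throughout, and the differences were -0.08 ± 0.32, -0.54 ± 0.32 and -0.46 ± 0.32 for day 3 against mock, day 14 against mock and day 14 against day 3 (limma adjusted p = 0.938, 0.707 and 0.495). Its receptor Ccr10, carried by IgA plasma cells, and the B cell survival factor Tnfsf13b (BAFF) stayed under the background line, with differences of 0.14 ± 0.26 and 0.12 ± 0.25 on day 3 (limma adjusted p = 0.838 and 0.854). Over the same 9 arrays Ccl28 ranged from 12.68 to 13.88, while Jchain spanned 11.62 log2 units.

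Around Pigr, 15 genes of epithelial antibody transport and antibody receptors were measured. On day 3, 4 were higher and 1 lower (median -0.36 against -0.06 over all). The shares of all transcript clusters called were 4.92% higher and 1.36% lower on day 3. Between day 3 and day 14 these shares were 1.40% higher and 4.88% lower. Fcgr2b, the inhibitory IgG receptor of B cells and macrophages, rose by 3.70 ± 0.23 (limma adjusted p = 3.3e-06) and B2m by 1.06 ± 0.21 (0.00806). Fcgrt, the neonatal receptor that carries IgG and pairs with B2m, rose by 1.00 ± 0.22 (limma adjusted p = 0.0136), and this call ended with mock array 3 (0.82, 0.0562) or day 3 resected array 2 (0.99, 0.0520) or 3 (0.95, 0.0624) left out. The exocyst subunit Exoc4, named after its value was seen, rose by 1.05 ± 0.26 (limma adjusted p = 0.0325). Rab25, a small GTPase of recycling endosomes in epithelium through which Pigr travels, fell by 1.07 ± 0.21 (limma adjusted p = 0.00666). By day 14, Fcgr2b (-3.69 ± 0.23, limma adjusted p = 2.5e-06) and Fcgrt (-1.41 ± 0.22, 0.00128) fell and Fcamr rose (median 0.00 against 0.06). Pigr itself was called in neither comparison.

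Fcamr, a receptor for IgA and IgM, is the gene next to Pigr on chromosome 1 in the RefSeq order, followed by Pigr and Fcmr, the IgM receptor. Fcamr was at 3.73, 4.55 and 3.40 in mock glands, 2.93, 2.91 and 3.43 at day 3 and 4.13, 4.49 and 4.67 at day 14 after resection. It rose by 1.34 ± 0.30 from day 3 to day 14 (limma adjusted p = 0.0155), and all 9 values were under the background line. This call ended with day 3 resected array 1 (1.26, limma adjusted p = 0.0515) or 2 (1.25, 0.0686) or day 14 resected array 2 (1.31, 0.0564) or 3 (1.22, 0.0725) left out. Fcmr, named here for its position, differed by -0.21 ± 0.23 (limma adjusted p = 0.699). Of 13 measured receptors and factors that can induce Pigr, 1 was called, the interleukin 4 receptor Il4ra, which rose by 2.56 ± 0.40 on day 3 (limma adjusted p = 0.00164) and fell by 2.52 ± 0.40 by day 14 (0.00153). The medians of that list were 0.18 and -0.13, against -0.06 and 0.06 over all. Over all transcript clusters 4.92% were called higher on day 3 and 4.88% lower from day 3 to day 14.

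Pigr is an epithelial transcript, and epithelial markers differed between the groups as well. Of 10 acinar genes, 2 were lower on day 3 (Bhlha15 and Slc12a2) and 2 were higher on day 14 than on day 3, with list means of 15.55 to 15.79 in mock, 15.14 to 15.33 in day 3 resected and 15.56 to 15.82 in day 14 resected glands. Prol1, Pip and Car6, 3 of these 10, were at the highest value of every array and could show no rise, and the means of the other 7 were 13.67 to 14.02, 13.09 to 13.36 and 13.69 to 14.05. Of 11 ductal genes, 1 was higher (Krt19) and 2 lower (Scnn1g and Egf) on day 3, and 3 rose from day 3 to day 14. Krt19, at 3.66 to 5.50, lay under the background line on all 9 arrays. The ductal list means were 11.48 to 11.56, 10.93 to 11.20 and 11.27 to 11.73 in the same order of groups. The kallikrein Klk1 was likewise at the highest value of every array, and the means of the other 10 were 10.63 to 10.72, 10.03 to 10.32 and 10.41 to 10.91. On day 3 the Pigr mean was 0.46 above mock while these list means were below it. The day 3 median difference was -0.01 for the acinar and -0.24 for the ductal genes, against -0.06 over all transcript clusters. The acinar median includes Prol1, Pip and Car6, which could show no rise, so it does not describe the other 7 acinar genes. The day 3 means of those 7 lay below their mock means. On day 3, 4.92% of all transcript clusters were called higher and 1.36% lower, and 1.40% were called higher on day 14 than on day 3. Calls among the acinar and ductal genes were lost when single arrays were left out, which is given with their values in the closing section. The part of epithelial content in the Pigr values was not tested.

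Tissue that could be carried along with the gland was checked by markers. Of 9 measured genes of lymph node stroma and vessels, 1 was higher on day 3, the chemokine Cxcl13, and from day 3 to day 14 Cr2 rose and Cxcl13 fell. The list medians were 0.03 on day 3 and 0.16 from day 3 to day 14, against -0.06 and 0.06 over all transcript clusters. Of all transcript clusters, 4.92% were called higher on day 3, and between the days 1.40% were called higher and 4.88% lower. The list means were 4.57 to 4.94 in mock, 5.06 to 5.28 in day 3 resected and 4.78 to 5.12 in day 14 resected glands. Plasmacytoid dendritic cells also express Jchain. Of 9 genes listed for them 1 was higher on day 3, Irf7 (1.64 ± 0.43, limma adjusted p = 0.0417), which the interferon response shares. The median of these 9 was 0.00, against -0.06 over all. That list cannot report these cells: it holds Klk1, a gland gene at the highest value of every array, and its defining marker Siglech lay under the background line on all 9, as did Ccr9, Cox6a2, Pacsin1 and Cd209d. Without Klk1 the list means were 5.87 to 6.39 in mock, 6.37 to 6.62 in day 3 resected and 5.91 to 6.42 in day 14 resected glands. Among fits without 1 array, Irf7 was called when mock array 3 or day 3 resected array 1 was left out. In the other 7 fits without 1 array it was 1.17 to 1.73 with limma adjusted p of 0.0603 to 0.176, and it was lost after quantile normalisation (1.53, 0.0575) and with only the groups compared (0.0980).

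The sublingual gland lies against the submandibular gland, and its mucous and demilune genes had 7 measured members with 0 called in any limma comparison of all 9 arrays (2, 3 and 0 at an unadjusted p under 0.05 for day 3 against mock, day 14 against mock and day 14 against day 3). The list medians in that order were -0.23, 0.05 and 0.10, against -0.06, -0.00 and 0.06 over all transcript clusters. Muc5b, Gcnt3, Bpifb2, Tff2 and Galnt12 lay under the background line on all 9 arrays. Agr2 lay above it on all 9, between 8.72 and 10.43, and was not called. Among the 7 measured genes, Dcpp3 was at 6.28, 8.17 and 5.80 in mock glands, 16.70, 7.80 and 19.69 at day 3 and 17.06, 19.71 and 14.05 at day 14 after resection. The Dcpp3 difference between day 3 resected and mock glands was 7.98 ± 2.25 (limma adjusted p = 0.0563). It passed after median centring (7.91, limma adjusted p = 0.0406), with the dimmest 30% left out (0.0486) and without day 3 resected replicate 2 (11.44, 5.4e-04). Day 14 resected and mock glands did not overlap and differed by 10.19 ± 2.25 (limma adjusted p = 0.143), which passed with only the groups compared (0.00601) and without day 3 resected replicate 2 (0.00327). The part of sublingual tissue in the values of Jchain and Pigr was not tested.

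Genes whose values ran most nearly in parallel were found by Pearson correlation over the 9 arrays among 18411 genes with a symbol, as a description without a test. The arrays share 3 groups, and with 9 points some of so many genes lie close to any pattern. Nearest to Jchain were Tlx3 (r = 0.97) and Spertl (r = 0.95), both close to background, with Tlx3 between 3.34 and 4.09 and a standard deviation of 0.27 against 4.12 for Jchain. Nearest to Pigr were Gtpbp1 (r = 0.96, 9.19 to 9.71) and Smurf1 (r = 0.95, 8.14 to 8.99). For the other 7 genes the nearest genes had r between 0.92 and 0.97. None of the 9 was among the nearest pair of another.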

How the data were processed

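Values on the log2 scale were deposited by the authors, using RMA in Transcriptome Analysis Console 4.0, which corrects background, normalises across arrays and summarises probes per transcript cluster, per the submitters' processing notes. For genome build, annotation version and scanner, nothing is given in the sources used here. Values reached 19.93 and exceeded a 16-bit range, so the scale may be stretched and differences are not calibrated. Of 28846 rows, 6640 control rows were left out and 22206 transcript clusters tested, 19572 of them with 1 symbol and 2634 with none here. Symbols came from the platform annotation, updated to RefSeq GRCm38.p6.

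All 9 arrays entered 1 limma 3.58.1 model in R 4.3.3 (a mean per group, 6 residual and 6.63 prior degrees of freedom), with two-sided p-values adjusted by Benjamini and Hochberg over all 22206 and a threshold of 0.05. Data were simulated for 22206 transcript clusters with the mock group's means and the spread within groups, pooled over all groups. With changes of 1, 2, 3 and 4 log2 set in the day 3 resected arrays, the model called 15, 47, 49 and 49 of 50 against mock.

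Members and the 15 gene lists (161 of 193 genes measured) were chosen with earlier results of these data known, as was the 95th percentile of negative controls as a background line. Named were the 9 members, a panel of 17 genes (11 measured), up to 3 called genes with the smallest adjusted p per list and comparison, and the 2 genes most alike to each member. Lists are described by counts and medians, with no test. List means without genes at the highest value of every array were added after the data had been seen. The number of arrays limits the precision. Alternatives were quantile normalisation, median centring, leaving out the dimmest 30%, the replicate number as a block, robust variances, only the groups compared and each array left out. Each member has 1 transcript cluster, so no other cluster could be tried.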

Additional observations from a re-analysis of the deposited data

Results flagged for a closer look

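The mock arrays cancel in day 14 against day 3 resected glands, so this comparison tests whether the difference from day 3 mock glands changed between the days. As day 14 mock glands are not analysed here, resection and time since surgery cannot be told apart in it. The results here passed it in limma, Pou2af1 with an adjusted p that rounds to 0.05. Jchain, at -6.88 against mock on day 3 and -0.54 on day 14, changed by 6.34. Other genes that were higher on day 14 than on day 3 were Pou2af1 (1.55), Fcamr (1.34), Ell2 (1.17) and Cr2 (0.92) among B cell, plasma cell and antibody receptor genes. Genes that were lower on day 14 than on day 3 were Cxcl13 (-3.30), Fcgr2b (-3.69), Spi1 (-2.82), Il4ra (-2.52), Cxcl12 (-2.07), Tgfb1 (-1.87), Cd37 (-1.75), Btk (-1.69) and Fcgrt (-1.41), beside the leukocyte genes Itgam (-3.71), Lyz2 (-3.41) and Adgre1 (-2.20). The limits of the Jchain, Pou2af1 and Fcamr calls stand with their values above.

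Epithelial genes that were higher on day 14 than on day 3 were Egf (2.83), Scnn1g (1.42), Bhlha15 (1.38), Slc12a2 (1.11) and Cftr (0.82). Of these, Scnn1g passed in every fit without 1 array. Slc12a2 was lost without day 3 resected replicate 3 (0.99, limma adjusted p = 0.0730) or day 14 resected replicate 3 (0.91, 0.0649), and Egf without the same arrays (2.58, 0.0640, and 2.21, 0.0519). Bhlha15 was lost without day 3 resected replicate 2 (1.23, 0.0804) or 3 (1.23, 0.0885) or day 14 resected replicate 1 (1.29, 0.0738) or 3 (1.25, 0.0780). Cftr passed in limma only without mock replicate 2 or 3, with 0.70 to 0.91 and adjusted p of 0.0518 to 0.168 in the other 7 fits, and was lost with the replicate block (0.0595). On day 3 against mock, Slc12a2 (-1.15) and Egf (-2.94) were lost without day 3 resected replicate 3 (-1.03, 0.0597, and -2.69, 0.0531). Bhlha15 (-1.19) was lost in 6 such limma fits (-1.25 to -0.95, 0.0520 to 0.161) and with only the groups compared (0.0697). Krt19 (1.04) was lost in 7 such limma fits (0.84 to 1.12, 0.0513 to 0.153) and with only the groups compared (0.0843).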

How the results depend on the processing

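The Jchain direction held in every fit of its called comparisons, but the number of the 9 genes called did not. With robust variances it was 0 for day 3 against mock and 0 for day 14 against day 3, and with only the groups compared it was 2 in the latter. Without 1 array it ran from 0 to 1, from 0 to 1 and from 0 to 2 (day 3 against mock, day 14 against mock, day 14 against day 3). Over all transcript clusters the counts without 1 array were 850 to 1307, 20 to 58 and 874 to 1429, with 850 and 874 when day 3 resected array 3 was left out, 58 when mock array 3 was, and 20 and 22 when day 14 array 2 or 3 was.

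Replicate numbers are not said to pair the mice, and same-numbered arrays deviated together at r of -0.09 to 0.05. The replicate block gave 1283, 26 and 1297 calls over all and left the member counts at 1, 0 and 1, with Jchain at an adjusted p of 0.0209 and 0.0320. It ended the calls of Btk and Ell2 on day 3 and of Cftr between the days.

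Signs turned for 13 of 27 member results and 24 of 108 others, none of them called in the full fit. After quantile normalisation these were Ms4a1 (-0.10), Blk (-0.0274) and Prdm1 (-0.0707) for day 14 against day 3, and Cd37 (-0.0066) and Scnn1g (0.0210) for day 14 against mock. After median centring they were Pax5 (-0.0099) on day 3, and Cd37 (-0.0035), Cxcl12 (-0.0014) and Fcgr2b (-0.0003) for day 14 against mock. Without 1 array, the day 3 differences from mock whose sign turned were Pax5 (-0.0217 to 0.22), Blk (-0.13 to 0.44), Prdm1 (-0.10 to 0.39), Tnfrsf17 (-0.30 to 0.11), Ccl28 (-0.37 to 0.22) and Tnfsf13b (-0.0096 to 0.20). For day 14 against mock they were Jchain (-2.68 to 1.22), Mzb1 (-0.25 to 0.17), Cd79a (-0.46 to 0.23), Ms4a1 (-0.32 to 0.0905), Pax5 (-0.17 to 0.41), Blk (-0.0313 to 0.46), Cd22 (-0.42 to 0.0160), Xbp1 (-0.0797 to 0.53), Irf4 (-0.57 to 0.20), Sdc1 (-0.23 to 0.32), Cxcl13 (-0.41 to 0.10), Tnfsf13b (-0.31 to 0.14), Cd37 (-0.22 to 0.29), Slamf7 (-0.10 to 0.80), Cxcl12 (-0.18 to 0.19), Tgfb1 (-0.32 to 0.0899), Fcgr2b (-0.0880 to 0.13), Il4ra (-0.18 to 0.33), Slc12a2 (-0.24 to 0.13), Scnn1g (-0.20 to 0.19) and Egf (-0.72 to 0.63). For day 14 against day 3 they were Cd79a (-0.0632 to 0.63), Ms4a1 (-0.16 to 0.23), Pax5 (-0.23 to 0.34), Blk (-0.26 to 0.31), Prdm1 (-0.16 to 0.33), Xbp1 (-0.36 to 0.0345), Irf4 (-0.12 to 0.65), Ccr10 (-0.0140 to 0.29), Tnfsf13b (-0.43 to 0.0192) and Dcpp3 (-1.26 to 4.69).

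An alternative transcript cluster per gene was not run, because each of the 9 genes has 1. What was detectable is limited by 3 arrays per group and by the background level of 7 of the 9 genes.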
